A study of Mus musculus with 8 samples.

Results

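Snord35a, Snord53 and Snord104 are the box C/D small nucleolar RNAs (snoRNAs) to which the study scaled its RT-qPCR of Kap1 knockdown (KD) in mRNA samples. They were taken by name from the small RNA tables, and each was listed on 1 row. They are 3 of 96 snoRNA sequences and 3 of 475 listed tRNA and snoRNA sequences in the Hepa 1-6 table, and 3 of 96 and 3 of 467 in the hepatocyte table. The small RNA data comprised 1 control and 1 Kap1 KD library of Hepa 1-6 cells, a mouse hepatoma line, and 1 wild-type (WT) and 1 Kap1 knockout (KO) library of primary murine hepatocytes processed directly after purification. Poly(A)+ RNA of the same line was sequenced from 2 control samples and 2 Kap1 KD samples. The knocked-down cells carried a lentiviral pLKO vector encoding an shRNA against Kap1, and the control cells carried the empty vector according to the methods, or a control shRNA according to the labels. Both were selected with puromycin and collected 5 days after transduction. The strain and age of the mice and the way Kap1 was deleted in hepatocytes are not given in the sources used here, nor is it stated whether samples came from separate cultures or animals. The p-values below therefore measure only the spread between these samples, which may be technical.

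Box C/D snoRNAs guide the 2′-O-methylation of ribosomal and other RNAs. They bind a core of proteins that includes the methyltransferase fibrillarin, and most are cut out of the introns of host genes after splicing. Because they are short, abundant and not polyadenylated, several of them are used as reference RNAs for normalization, a use that rests on an even level across the samples compared.

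The 3 sequences are shown because their place in the genome and their motifs differ. All were read from the mm9 genome at the position of the annotated RNA, 5′ to 3′ on the strand of the RNA, and capitals mark TGATG, the core of box C, where it starts within the first 15 bases, and CTGA, the core of box D, where it lies within the last 15 bases.
Snord35a: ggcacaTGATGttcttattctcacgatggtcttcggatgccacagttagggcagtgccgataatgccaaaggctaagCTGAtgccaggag
Snord53: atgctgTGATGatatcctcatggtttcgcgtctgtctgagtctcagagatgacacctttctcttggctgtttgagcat
Snord104: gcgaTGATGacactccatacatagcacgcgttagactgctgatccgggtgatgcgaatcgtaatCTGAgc

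Snord35a (ENSMUSG00000065818) has 90 bases and lies at chr7:52381716-52381805 on the minus strand, in an intron of Rpl13a, which encodes a protein of the large ribosomal subunit. Snord53 has 78 bases and lies at chr17:71990219-71990296 on the plus strand, in an intron of Wdr43, a gene for a nucleolar protein of ribosome assembly. The annotation of this build lists it under another name (CT010429.2, ENSMUSG00000092887), and it was located by the single exact match of the study's Snord53 primer pair. Snord104 (ENSMUSG00000065126) has 70 bases and lies at chr11:106362307-106362376 on the plus strand, outside any annotated host gene of this build. RefSeq places the long non-coding RNA Gm36220 around it. Box C core letters were found in all 3 sequences and box D core letters in Snord35a and Snord104, while those 4 letters are not in the last 15 bases of Snord53. Among 54 annotated Snord genes of the same build, 81.5% held the box C letters in that window, 90.7% the box D letters and 79.6% both, counted on the strand of the RNA.

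The tables name sequences with flanks of 200 bases, so a count can include reads from beside the snoRNA. The flanks of Snord35a reach over 35 bases of Snord34 and over 266 bases of annotated Rpl13a exons, those of Snord104 over 20 bases of SNORA76, and those of Snord53 over no other snoRNA. A related snoRNA, CT010429.1, lies 627 bases from Snord53 and is identical to it at 59 of 80 aligned positions (73.8%), so that short reads could be shared between them. Snord35b, a snoRNA outside Rpl13a, is identical to Snord35a at 68 of 92 aligned positions (73.9%) and has a row of its own, with 3955 and 4104 counts in control and Kap1 KD Hepa 1-6 cells and 133 and 457 in WT and Kap1 KO hepatocytes. The share of such reads was not tested.

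Totals over the listed sequences were 26249204 counts in control and 29223566 in Kap1 KD Hepa 1-6 cells, and 3028467 in WT and 11006899 in Kap1 KO hepatocytes, of which snoRNAs took 96.0% to 99.4%. A single snoRNA, Snord12 in Hepa 1-6 cells and Snord55 in hepatocytes, held 40.6% to 45.3% of all snoRNA counts in each library. The rRNA depletion kit differed between the cell types (Ribo-zero for Hepa 1-6, GeneRead for hepatocytes), so cell type and kit cannot be told apart. Each condition has 1 small RNA library, so the comparisons are of libraries, no p-value was computed, and intervals are 95% intervals that cover counting error only.

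The reference snoRNAs were detected in every small RNA library, over very unequal ranges. Snord104 had 112984 counts in control and 85374 in Kap1 KD Hepa 1-6 cells, and 111168 in WT and 177837 in Kap1 KO hepatocytes. It ranked 18th and 22nd of 96 snoRNAs in Hepa 1-6 cells and 6th and 10th in hepatocytes. Snord35a had 68056 and 85817 counts in control and Kap1 KD Hepa 1-6 cells, and 2533 and 18533 in WT and Kap1 KO hepatocytes. Its rank was 21st in both Hepa 1-6 libraries, 38th in WT hepatocytes and 29th in Kap1 KO hepatocytes. Snord53 was the least counted of the 3 throughout, with 14722 and 20621 counts in Hepa 1-6 cells but 63 (exact Poisson interval 48.4 to 80.6) in WT and 469 (427.5 to 513.4) in Kap1 KO hepatocytes. In WT hepatocytes it ranked 91st of 96.

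Relative to the total of listed counts, Snord104 was lower in the Kap1-depleted library of both pairs and the other two were higher. Snord104 went from 4304 to 2921 CPM (counts scaled to the listed total) in Hepa 1-6 cells and from 36708 to 16157 in hepatocytes. Snord35a went from 2593 to 2937 and from 836 to 1684 CPM, and Snord53 from 561 to 706 and from 20.8 to 42.6.

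**Figure D1:**
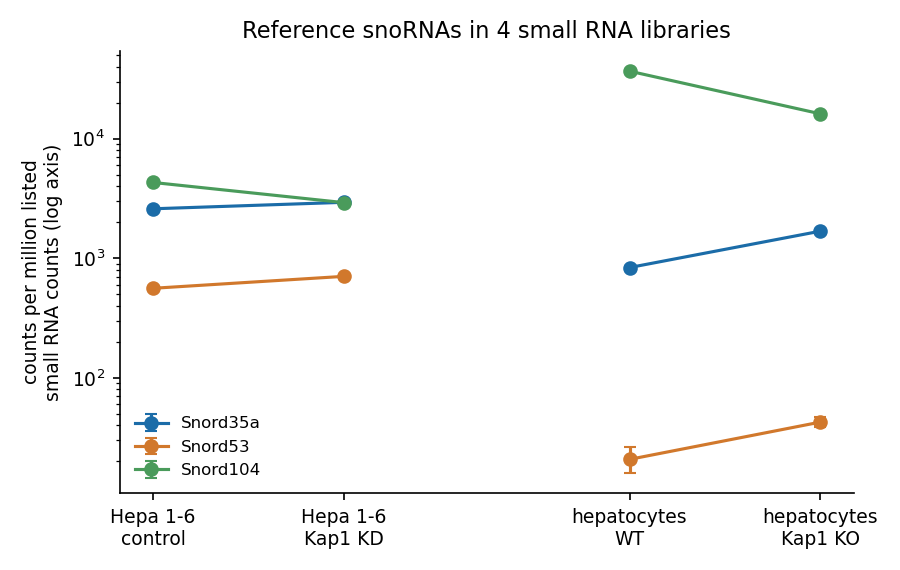
CPM, relative to all listed small RNA counts (log axis), of each reference snoRNA in the 4 small RNA libraries, with lines joining the libraries of a pair and bars for the 95% exact Poisson interval of the count. Snord104 and Snord35a meet at 2921 and 2937 CPM in Kap1 KD Hepa 1-6 cells, whereas in WT hepatocytes the 3 snoRNAs range from 20.8 to 36708.

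Per base of the annotated RNA, Snord104 had the highest level in all 4 libraries and Snord53 the lowest. The levels in control Hepa 1-6 cells were 1614 counts per base for Snord104, 756 for Snord35a and 189 for Snord53, and in Kap1 KD cells 1220, 954 and 264. In WT hepatocytes they were 1588, 28.1 and 0.808 counts per base, and in Kap1 KO hepatocytes 2541, 206 and 6.01. With the 4 libraries scaled together by TMM, a trimmed mean of log ratios over all sequences, Snord104 was at 4082 and 4843 CPM in Hepa 1-6 cells and at 19710 and 19140 in hepatocytes. Snord35a was at 2459 and 4868 CPM against 449 and 1995, and Snord53 at 532 and 1170 CPM against 11.2 and 50.5. On this scale the hepatocyte libraries thus lay above the Hepa 1-6 libraries for Snord104 and below them for both others, in tables that were made separately. The share of all snoRNAs that separate the cell types in this way was not counted, so this is not shown to be particular to the reference snoRNAs.

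The ratio of 2 snoRNAs within a library needs no scaling between libraries. It is a ratio of counts, not corrected for length. The ratio of Snord35a to Snord53 was 4.62 (exact binomial interval 4.54 to 4.71) in control and 4.16 (4.10 to 4.23) in Kap1 KD Hepa 1-6 cells. In hepatocytes it was 40.2 (31.3 to 52.5) in WT and 39.5 (36.0 to 43.4) in Kap1 KO. The ratio was therefore near even within each pair of libraries, with intervals that overlap in hepatocytes and do not in Hepa 1-6 cells, and about an order of magnitude apart between the cell types. On the log2 scale its change was -0.15 (interval -0.19 to -0.12) between the Hepa 1-6 libraries and -0.02 (-0.40 to 0.37) between those of hepatocytes.

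Snord104 parted from both others in the same direction in both pairs. The ratio of Snord35a to Snord104 was 0.602 (0.597 to 0.608) in control and 1.005 (0.996 to 1.015) in Kap1 KD Hepa 1-6 cells, which is 1.67-fold higher (1.65 to 1.69). It was 0.0228 (0.0219 to 0.0237) in WT and 0.104 (0.103 to 0.106) in Kap1 KO hepatocytes, or 4.57-fold higher (4.38 to 4.77). The ratio of Snord53 to Snord104 was 0.130 in the control library and 0.241 in the Kap1 KD library, 1.85-fold higher (1.81 to 1.90). In hepatocytes it was 0.000567 in WT and 0.00264 in Kap1 KO, 4.62-fold higher (3.55 to 6.01). None of these 4 intervals of the fold includes 1.

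**Figure D2:**
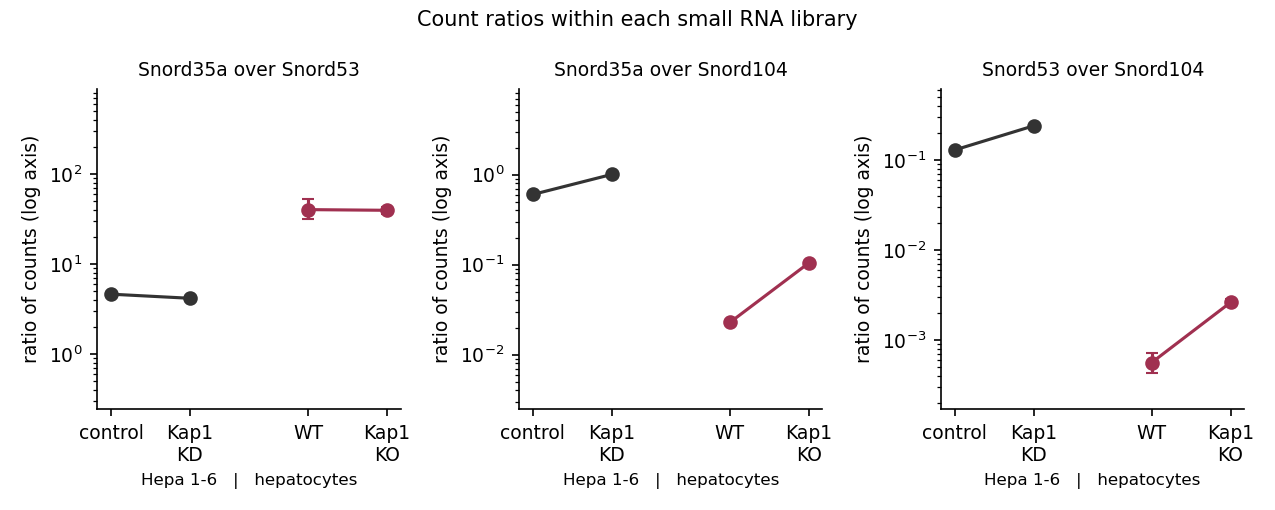
Ratio of the counts of each pair of reference snoRNAs in each small RNA library (log axes, each spanning the same number of decades), with 95% exact binomial intervals; black, Hepa 1-6, and red, hepatocytes. The line is near level for Snord35a over Snord53 in both pairs, and rises towards the Kap1-depleted library for both ratios to Snord104.

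The changes were read against the same measure over all snoRNA pairs with at least 50 summed counts a member. In Hepa 1-6 cells, 1540 of 4278 pairs (36%) changed their ratio at least 1.5-fold between the libraries, and 2 of the 3 reference pairs did. In hepatocytes, 2807 of 4465 pairs (62.9%) did so, as did the same 2 of 3 reference pairs. A change at least as large as that of Snord35a over Snord104 was seen in 25% of the pairs in Hepa 1-6 cells and 7.32% in hepatocytes. For Snord53 over Snord104 these shares were 16.7% and 7.10%, and for Snord35a over Snord53 they were 81.1% and 99.0%. By its point estimate, Snord35a over Snord53 was thus among the least changed pairs of hepatocytes. That estimate rests on 63 counts of Snord53 in WT, and its counting interval of -0.40 to 0.37 (log2) also holds larger changes. Its place in the order is therefore uncertain. The other 2 pairs were in the upper part of the range.

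The median absolute change of the ratio of a snoRNA to every other snoRNA was next compared, where a low value means that a snoRNA moved like most others. In Hepa 1-6 cells it was 0.33 (log2) for Snord104, 0.52 for Snord35a and 0.65 for Snord53, beside a median of 0.36 over the 93 snoRNAs. In hepatocytes it was 0.82 for Snord104, 1.46 for Snord35a and 1.48 for Snord53, beside 0.72 over 95 snoRNAs. By this measure Snord104 was the 36th and 62nd most even snoRNA in the 2 pairs, Snord35a the 71st and 86th, and Snord53 the 81st and 87th. Each is thus in the middle or the less even end of the order, and Snord35a and Snord53 deviated further than Snord104 in both pairs.

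When libraries of a pair were scaled by TMM, Snord35a and Snord53 were higher in the Kap1-depleted library and Snord104 was near even. The log2 ratio of Kap1 KD over control was 0.99 (0.97 to 1.0) for Snord35a, 1.14 (1.11 to 1.17) for Snord53 and 0.25 (0.23 to 0.26) for Snord104. The log2 ratio of Kap1 KO over WT was 2.17 (2.11 to 2.23) for Snord35a, 2.19 (1.82 to 2.60) for Snord53 and -0.019 (-0.030 to -0.0085) for Snord104. With this scaling, the median log2 ratio in Hepa 1-6 cells was 0.49 over snoRNAs and -0.12 over tRNAs. In hepatocytes these medians were 0.73 and -0.53. Snord104 was thus near even relative to all listed sequences, but below the snoRNA median in both pairs. In Hepa 1-6 cells, 57 of 339 sequences (16.8%) and 37 of 93 snoRNAs (39.8%) were at least 1.5-fold higher in the Kap1 KD library. In hepatocytes this held for 79 of 261 sequences (30.3%) and 56 of 95 snoRNAs (58.9%). Of the reference snoRNAs, 2 of 3 were past that fold in each pair, so their count is not far from that of snoRNAs at large.

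The level of every log2 ratio depends on the scaling, while the differences between the 3 do not. Scaling to the total of listed counts moves all ratios by -0.81 in the Hepa 1-6 pair and by -1.16 in the hepatocyte pair. Snord35a is then at 0.18 and 1.01, Snord53 at 0.33 and 1.02, and Snord104 at -0.56 and -1.18, so that Snord104 turns from near even to lower. With that scaling, 3 snoRNAs were at least 1.5-fold higher and 26 lower in Kap1 KD Hepa 1-6 cells, in place of 37 and 2 with TMM, and 17 higher and 39 lower in Kap1 KO hepatocytes, in place of 56 and 4.

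**Figure D3:**
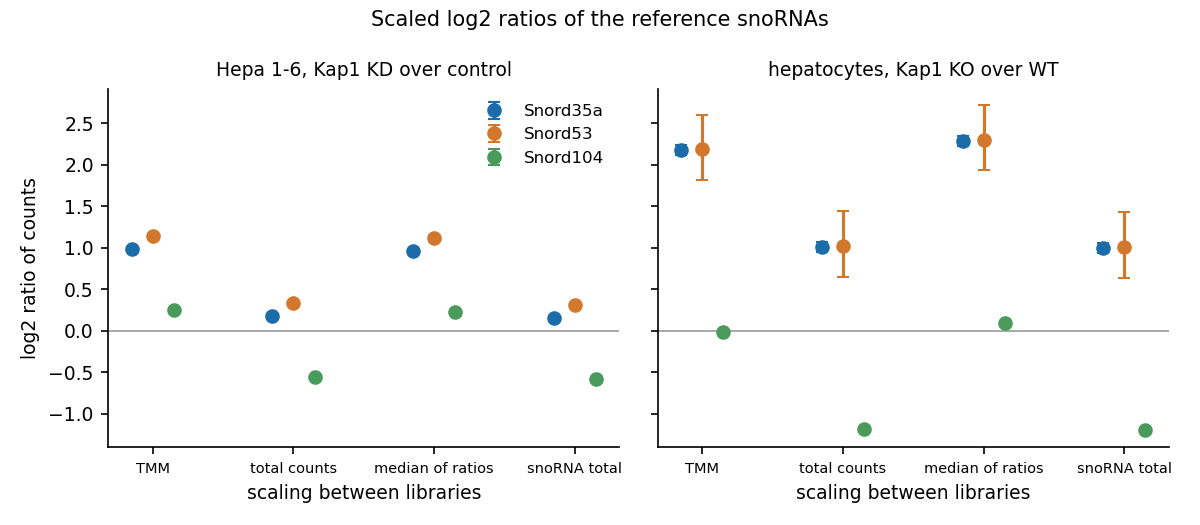
Log2 ratio of the counts of each reference snoRNA in the Kap1-depleted over the other library, under 4 ways of scaling the libraries, with 95% exact binomial intervals. The points of the 3 snoRNAs move up and down together between scalings, and Snord104 lies below both others in every case, from 0.25 with TMM to -0.59 with the snoRNA total in Hepa 1-6 cells.

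The mean of the 3 log2 ratios, which is what a normalization to all of them would use, was 0.79 in Hepa 1-6 cells and 1.45 in hepatocytes with TMM, and -0.02 and 0.28 with total counts. Around that mean, Snord35a deviated by 0.20, Snord53 by 0.35 and Snord104 by -0.54 in Hepa 1-6 cells. In hepatocytes the deviations were 0.73, 0.74 and -1.47. The span from the lowest to the highest reference was 0.89 in Hepa 1-6 cells and 2.21 in hepatocytes on the log2 scale.

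The other snoRNAs of the same host genes were set beside them. Rpl13a also holds Snord32a, Snord33 and Snord34, all box C/D snoRNAs. Snord34, which shares 35 bases with the flank of Snord35a, had 58543 and 79406 counts in Hepa 1-6 cells and 2303 and 19351 in hepatocytes, with TMM log2 ratios of 1.09 and 2.37, close to those of Snord35a. Snord32a had 36448 and 34413 counts in Hepa 1-6 cells and 25376 and 98368 in hepatocytes, with log2 ratios of 0.57 and 1.26. Snord33 had 55353 and 38606 counts and 8499 and 16855 counts, with log2 ratios of 0.13 and 0.29. The snoRNAs of 1 host gene thus ranged over 0.96 in Hepa 1-6 cells and 2.08 in hepatocytes on the log2 scale, with the same order in both pairs. In Wdr43, Snord92 had 11238 and 11084 counts in Hepa 1-6 cells and 799 and 2970 in hepatocytes. Its log2 ratios of 0.63 and 1.20 were below those of Snord53.

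**Figure D4:**
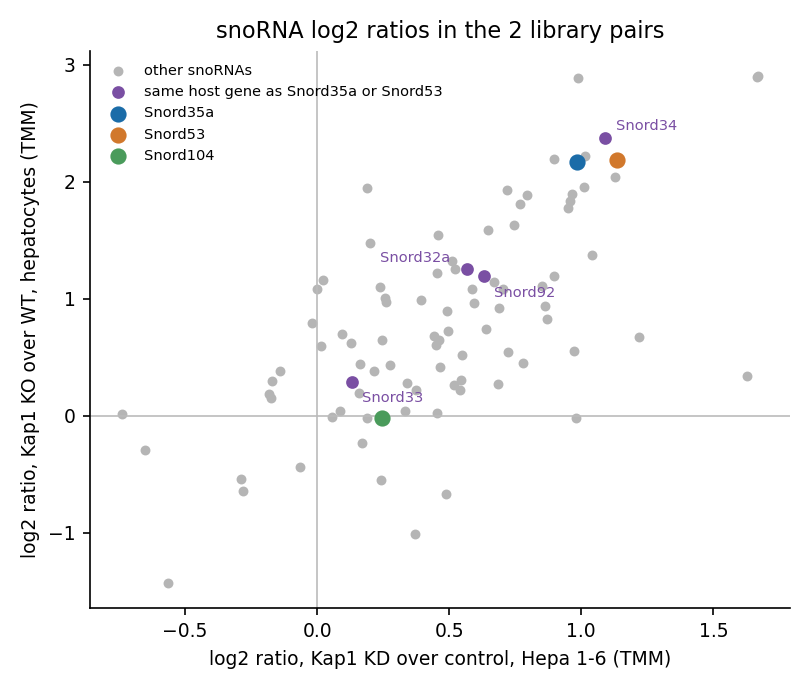
TMM-scaled log2 ratio of each of 92 snoRNAs in hepatocytes (Kap1 KO over WT) against Hepa 1-6 cells (Kap1 KD over control), with the reference snoRNAs and the snoRNAs of Rpl13a and Wdr43 marked. Snord35a, Snord53 and Snord34 lie together in the upper right, and Snord104 lies at 0.25 and -0.019.

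Across the 92 snoRNAs measured in both pairs, the log2 ratios of the 2 pairs correlated with Pearson's r of 0.66 and Spearman's rho of 0.63. The points share the libraries, their scaling and the sequence of each snoRNA. The sequences closest in pattern to each reference over the 4 libraries were found by the root mean square difference of centred log2 TMM CPM. For Snord35a, they were Snord34 (0.10), Snord93 (0.10) and Snord110 (0.27). For Snord104, they were Snora70 (0.11), Snora21 (0.13) and Snord82 (0.19), of which the first 2 are of the other snoRNA class, box H/ACA, which guides pseudouridylation. For Snord53, they were Snord12 (0.26), Snord1b (0.35) and Snord91a (0.52), although its 63 counts in WT hepatocytes are under the minimum of 100 set for the sequences compared. The nearest sequence to Snord53 was thus further from it than the nearest to each of the other two.

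Of 16 other snoRNAs listed as common reference RNAs, 13 were measured, and their median TMM log2 ratio was 0.51 in Hepa 1-6 cells, beside 0.49 over all snoRNAs, and 1.32 in hepatocytes, beside 0.73. In Hepa 1-6 cells, 6 of 13 were at least 1.5-fold higher in the Kap1 KD library, where 39.8% of all snoRNAs were, and 0 lower, from Snord49b at -0.02 (666706 and 418540 counts) to Snord47 at 1.04 (319714 and 418612 counts). In hepatocytes, 12 of 13 were higher, beside 58.9% of all snoRNAs, and 0 lower, from Snord87 at 0.44 (673 and 1482 counts) to Snord95 at 2.20 (14075 and 104583 counts). All 13 lay above Snord104 in hepatocytes, and 1 of 13 lay above Snord35a in each pair. These directions depend on the scaling: with total counts, 0 of 13 were higher and 5 lower in Hepa 1-6 cells (median -0.30), and 3 were higher and 1 lower in hepatocytes (median 0.16).

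In mRNA-seq, libraries held 41566888 to 53605115 counts, of which the reference snoRNAs took few. The controls held 38 and 21 counts of Snord35a, and the Kap1 KD samples 22 and 25. For Snord104 the controls held 396 and 356 counts and the Kap1 KD samples 297 and 479. Snord53 was at 1 and 2 counts in the controls and at 4 and 0 in the Kap1 KD samples, did not pass the filter on low counts and was not tested. Values of control and Kap1 KD samples overlapped for all 3. The order of counts, Snord104 over Snord35a over Snord53, was that of the small RNA library of control Hepa 1-6 cells. The size of the ratio was not: Snord104 over Snord35a was 10.42 and 16.95 in the mRNA-seq controls, against 1.66 in that library. The rows of snoRNAs inside a host gene may hold reads of its unspliced RNA, which cannot be told apart from the snoRNA here. The same holds for Snord104 and the RNA that RefSeq places around it.

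Neither tested snoRNA passed the thresholds of a 1.5-fold change and an adjusted p of 0.05. Snord35a was at 0.553 ± 0.183 CPM after TMM normalization (SD, n = 2) in control and at 0.525 ± 0.0127 (SD, n = 2) in Kap1 KD cells. Its log2 fold change was -0.08 (SE 0.42; Benjamini-Hochberg adjusted p = 0.9999, edgeR quasi-likelihood test). Snord104 had 7.14 ± 0.0464 CPM (SD, n = 2) in control and 8.61 ± 2.31 (SD, n = 2) in Kap1 KD cells. Its log2 fold change was 0.27 (SE 0.29; adjusted p = 0.9999, edgeR). That test called 0 of 14142 genes (0%) at the thresholds, while 185 genes (1.31%) had an unadjusted p under 0.05. DESeq2 called 3 genes, none of them a reference snoRNA. The study, with DESeq2 at these thresholds, reported many more genes in each direction. The cause of that difference was not tested. Leaving out control replicate 1 turned the log2 fold change of Snord35a to 0.31, and leaving out Kap1 KD replicate 2 turned that of Snord104 to -0.03.

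**Figure D5:**
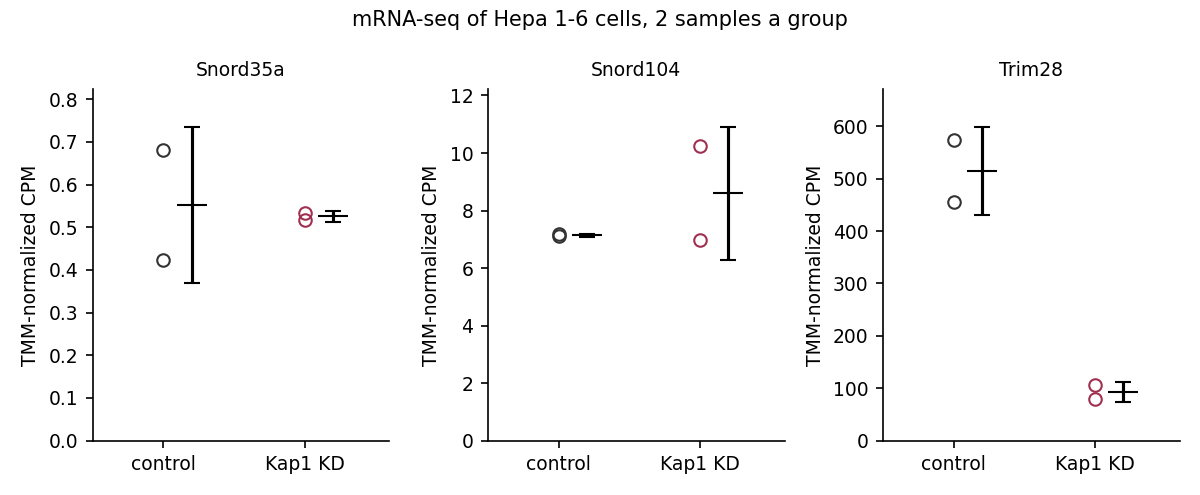
TMM-normalized CPM of Snord35a, Snord104 and Trim28 in mRNA-seq of Hepa 1-6 cells (open circles, 2 samples a group), with the mean and SD beside them. Control and Kap1 KD values overlap for both snoRNAs and lie apart for Trim28, at 515 and 92.4 CPM on average.

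Trim28, the gene of KAP1 and the target of the knockdown, was counted 25400 and 28506 times in the controls, against 4512 and 3692 times after knockdown. Its log2 fold change was -2.48 (SE 0.25; adjusted p = 0.9999, edgeR). It was not called in that fit, but it was called by DESeq2 (adjusted p = 2.57e-10), by edgeR with the replicate number as a block, and by edgeR with any 1 sample left out (adjusted p from 5.61e-08 to 0.000584). The snoRNA counts used next come from poly(A)+ libraries, whereas the study measured these snoRNAs by RT-qPCR, so the percentages do not reproduce its normalization. Relative to Snord35a in the same sample, the log2 count of Trim28 was 9.38 and 10.41 higher in control samples and 7.68 and 7.21 higher in Kap1 KD samples, a mean difference of -2.45 that leaves 18.3% of control. Relative to Snord104, it was 6.0 and 6.32 higher in control and 3.93 and 2.95 higher in Kap1 KD samples, a difference of -2.73 that leaves 15.1%. Both Kap1 KD samples lay below both controls with either snoRNA, and an exact permutation test, two-sided, gave p = 0.333, the smallest that 2 against 2 samples allow. The estimate of remaining Trim28 thus ranged from 15.1% with Snord104 to 18.3% with Snord35a, and the mean of both gave 16.6%. The gap between these estimates equals the change in the ratio of Snord104 to Snord35a given below. It is smaller than the SD of that ratio between the control samples, so an effect of the reference is not shown.

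Of the mRNAs that the study used as references or controls in its RT-qPCR, 4 gave values in or just past that range and 1 lay well above it. The remaining Trim28 was 16.4% relative to Actg1, 17.3% to Gapdh, 17.6% to Actb and 18.7% to Tbp, where Actg1 and Actb encode cytoplasmic actins, Gapdh a glycolytic enzyme and Tbp the TATA-binding protein. The log2 fold changes of these 4 genes ranged from -0.07 for Tbp to 0.12 for Actg1, and 0 of 4 were called, in a fit that called 0 of 14142 genes. Relative to Hnf4a, which encodes a liver transcription factor, 23.7% of Trim28 remained (log2 difference -2.08). Hnf4a was counted 6131 and 10054 times in the controls and 3638 and 6953 times in the Kap1 KD samples, values that overlap. Its log2 fold change was -0.42 (SE 0.41; adjusted p = 0.9999, edgeR). With the replicate number as a block, the log2 fold change of Hnf4a was -0.41 (adjusted p = 2.71e-07, edgeR), under the 1.5-fold threshold. The ratio of Snord104 to Snord35a was 10.4 (exact binomial interval 7.46 to 14.9) and 16.9 (10.9 to 27.7) in control, and 13.5 (8.75 to 21.9) and 19.2 (12.8 to 29.9) in Kap1 KD samples. The intervals overlap in all 4 samples, and the mean log2 difference of 0.28 between groups had p = 0.667 in an exact two-sided permutation test. That difference is smaller than the SD of 0.50 between the control samples, and its sign is opposite to that between the small RNA libraries. Among same-numbered samples, the ratio was higher in the Kap1 KD sample in each case, although the labels do not say that these samples belong together.

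The host genes and the snoRNA protein genes showed no call either, in a fit that called 0 of 14142 genes and so sets no list apart. Rpl13a counts were 89317 and 106138 in the controls, 77645 and 117228 in the Kap1 KD samples, with a log2 fold change of 0.21 (SE 0.26). Those of Wdr43 were 10421 and 6250 in the controls, 7563 and 5821 in the Kap1 KD samples, with a log2 fold change of -0.05 (SE 0.29). The adjusted p was 0.9999 for both (edgeR), and values of the groups overlapped for both. With the replicate number as a block, the adjusted p of Rpl13a was 0.0044 (edgeR) at a log2 fold change of 0.21, under the 1.5-fold threshold. The snoRNA SNORA76, beside Snord104, was at 49 and 26 counts in the controls and at 31 and 24 in the Kap1 KD samples. Of 16 genes for snoRNA core and assembly proteins, 0 were called higher and 0 lower. Their log2 fold changes ranged from -0.07 for Dkc1, the pseudouridine synthase of box H/ACA particles, to 0.17 for Fbl, which encodes fibrillarin, with a median of 0.07.

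Of 12 hepatocyte and hepatoma markers, 9 were at 1 CPM or more in every mRNA-seq sample, and their summed level was 2192 to 2540 CPM in control and 1202 to 1788 CPM in Kap1 KD samples. Serpina1a and Ttr were near 0. Of 12 markers of other liver cells, 10 were measured and 2, Cd68 and Epcam, were at 1 CPM or more in every sample, with sums of 24.5 to 24.6 CPM in control and 19.0 to 19.6 in Kap1 KD samples. The small RNA tables list no mRNA, so neither these markers nor Trim28 could be checked in the hepatocyte libraries.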

How the data were processed

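The authors aligned mRNA-seq reads to mm9 with TopHat2 2.0.11 and deposited HTSeq 0.6.1 counts per Ensembl gene. For small RNA-seq they deposited counts per tRNA or snoRNA sequence, a normalized signal (the deposited value is each count over a library's median-of-ratios size factor) and a length-scaled signal. The aligner for these is not given in the sources used here. Counts were used throughout. Hepatocyte columns came in identical pairs (467 of 467 rows) and were counted as 1 library each.

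Small RNA ratios used 0.5 added to each count and TMM scaling, with intervals from the counts (reads are not independent molecules, so they cover counting error only). For mRNA, all genes were fitted with edgeR 4.0.16 in R 4.3.3 (quasi-likelihood test after filterByExpr and TMM), with SE the log2 fold change over the square root of F. DESeq2 1.42.0 was the alternative. Exact tests used SciPy 1.17.1. The scripts were tested on simulated data. Members and lists were chosen with earlier results of these data known. Named genes were the members, their hosts and neighbouring snoRNAs, the study's RT-qPCR genes, snoRNA protein genes, other reference snoRNAs (largest and smallest change) and the 3 sequences closest in pattern; Snord35b and Hnf4a were added after their values were seen. Other scalings, pseudocounts, filters, a replicate block and leaving out each sample were tried.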

Additional observations from a re-analysis of the deposited data

Results flagged for a closer look

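The TMM-scaled log2 ratio of Snord104 had opposite signs in the 2 pairs of small RNA libraries, 0.25 for Kap1 KD over control in Hepa 1-6 cells and -0.019 for Kap1 KO over WT in hepatocytes. There is 1 library per condition, so the difference between the pairs was not tested, and with total counts both values were below 0 (-0.56 and -1.18), whereas with median-of-ratios factors both were above 0 (0.23 and 0.093).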

How the results depend on the processing

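The small RNA log2 ratios moved beyond their counting intervals with the scaling. In Hepa 1-6 cells, scaling to listed totals gave 0.18 for Snord35a, 0.33 for Snord53 and -0.56 for Snord104, and snoRNA totals gave 0.15, 0.30 and -0.59. In hepatocytes, listed totals gave 1.01, 1.02 and -1.18, and snoRNA totals 1.0, 1.01 and -1.20. Median-of-ratios factors, which equal the factors of the deposited signal, gave 0.96 for Snord35a and 0.23 for Snord104 in Hepa 1-6 cells, and 2.29 and 0.093 in hepatocytes. A pseudocount of 5 moved none of these ratios and none of the changes of pairwise ratios beyond their intervals. A minimum of 500 summed counts gave 36.3% and 65.6% of snoRNA pairs past 1.5-fold. Using the row with most counts alone was not run, since each snoRNA has 1 row.

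In mRNA-seq, DESeq2 called 3 genes. Without a sample in turn, 3 to 65 genes were called, and the log2 fold change ranged from -0.35 to 0.31 for Snord35a and from -0.026 to 0.52 for Snord104; the lone sample left in a group is then assumed to vary like the other group, and the cause of these shifts was not tested. With the replicate block, 631 genes were called (292 higher, 339 lower). In the labels, 1 control and 1 Kap1 KD sample carry the number 2, with no sign that same-numbered samples belong together, although their deviations from the group means correlated at 0.80 across 14142 genes. Snord35a (-0.06) and Snord104 (0.25) were not called with the block, with adjusted p of 0.925 and 0.149 in edgeR, whereas Trim28 (-2.48) was, as it was in DESeq2 (-2.47). With the block, 3 of 16 snoRNA protein genes (Fbl, Nhp2 and Ruvbl2, log2 fold changes 0.16, 0.16 and 0.15, adjusted p 0.024, 0.016 and 0.046 in edgeR), 1 of 2 host genes (Rpl13a) and 0 of 4 mRNA references had an adjusted p under 0.05, and none of them reached 1.5-fold. In that edgeR fit 4627 of 14142 genes had an unadjusted p under 0.05. The share of all genes with an adjusted p under 0.05 was not counted, so these counts are not shown to be particular to the lists. The counts of 21 to 38 for Snord35a and 0 to 4 for Snord53 limit what mRNA-seq shows of them.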
